A study of Mus musculus with 6 samples.

Results

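The 36 genes described here encode aminoacyl-tRNA synthetases, 20 of them cytosolic enzymes and 16 of them mitochondrial enzymes whose symbols carry the suffix 2, among 41819 genes in the count table. They were chosen by name and compartment, not by any measured value, although earlier results of these data were known. Under these names 35 were found, and the cytosolic methionine enzyme Mars1 was found through its identifier under the older name Mars. All 36 had enough counts to enter the comparison, which covered 11509 genes.

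The cells were mouse 3T3 fibroblasts, an immortalized line from embryos, and all dishes came from a single clone that carries a lentiviral TetOne cassette for human poly(ADP-ribose) glycohydrolase (hPARG), kept under puromycin. PARG is the main enzyme that removes poly(ADP-ribose) chains from proteins, and the cassette makes it when doxycycline (DOX) is added. The comparison asked what 72 h of hPARG induction did to the transcriptome: 3 dishes received 500 ng/ml DOX (hPARG) and 3 dishes of the same clone received none (control). The sample labels speak of wells of a 6-well plate where the methods have 10 cm dishes, and dish stands for either. All groups share the cassette, and cells given DOX without it were not analysed here, so DOX and hPARG cannot be told apart. P-values measure the spread between dishes of that clone only.

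Poly(A) RNA gave between 21619908 and 25263818 counts on genes per dish. A floor of 3 counts, which covers counting error only, was 0.119 to 0.139 CPM, that is, counts per library scaled to a common total. The least counted synthetase value was 131 counts, for Sars2 in hPARG dish 1. All 8 fibroblast markers looked for passed the count filter, with a summed RPKM of 3181 to 3559 in control and 3386 to 3811 in hPARG dishes. Their log2 fold changes, hPARG over control, lay between 0.08 and 0.58. At an FDR under 0.05 there were 0 of them (0.0869% of tested genes), and at an unadjusted p under 0.05 there were 3 (3.95%). In 3 of 8 all hPARG dishes lay above all control dishes, as in 3.61% of tested genes. Among markers of other cell types, 0 of 5 epithelial, 1 of 5 leukocyte and 1 of 4 endothelial genes passed it, and none of these lists summed above 0.83 RPKM in any dish. The dishes numbered 2 stood apart: on the first principal component, which held 42.0% of the variance, control dish 2 lay at 21.6 and hPARG dish 2 at 24.7, while the other 4 dishes lay between -27.4 and -3.17. Results were therefore computed with and without both dishes numbered 2.

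Aminoacyl-tRNA synthetases join each amino acid to its own tRNA, the step that sets the genetic code in translation. Cytosolic and mitochondrial protein synthesis mostly use separate enzymes, all of them encoded in the nucleus, although Gars and Kars each serve both compartments and Eprs joins glutamate and proline activity in a single chain. Several cytosolic enzymes sit together in the multisynthetase complex with the scaffolds Aimp1, Aimp2 and Eef1e1. Many cytosolic synthetase genes are known targets of ATF4, the transcription factor of the integrated stress response, which answers amino acid shortage and misfolded protein.

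Cytosolic synthetase transcripts were far more abundant than mitochondrial ones in every dish. Levels between genes were compared per gene length, as RPKM (reads scaled by gene length and library total), which the authors deposited. The median cytosolic gene was at 48.2 to 57.2 RPKM per dish and the median mitochondrial gene at 4.29 to 5.31 RPKM, a ratio of 9.86 to 11.2 per dish (mean 10.5, SD 0.54 between dishes of a group, n = 3 per group). Cytosolic genes took 0.420% to 0.516% of all counts in a dish and mitochondrial genes 0.0464% to 0.0631%. No test was run on this difference in level, which is given as a description.

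The highest transcript was Gars, for glycine (chromosome 6, 55038007 to 55079500, GRCm38, plus strand). It was at 191.3, 190.2 and 184.9 RPKM in control dishes 1 to 3 and at 195.2, 192.1 and 173.5 RPKM in hPARG dishes 1 to 3, the 97.4th percentile of tested genes. Kars, for lysine, came next with 139.5, 142.1 and 136.4 RPKM in control and 134.4, 132.9 and 132.0 RPKM in hPARG dishes. Sars, for serine, followed with 132.4, 126.4 and 139.0 RPKM in control and 137.4, 126.0 and 121.8 RPKM in hPARG dishes. Gars stood above every other member in every dish, whereas the dishes of Kars and Sars overlapped. Nars (asparagine), Aars (alanine) and Rars (arginine) had means of 95.1, 81.3 and 74.5 RPKM, and the lowest cytosolic gene, Cars (cysteine), had a mean of 31.2 RPKM. From Kars down to Cars, the range over 6 dishes of each gene overlapped that of its neighbour in the order.

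The leucine enzyme of mitochondria, Lars2 (chromosome 9, 123366927 to 123462666, plus strand), was the exception among mitochondrial genes. It was at 36.8, 39.3 and 53.3 RPKM in control and 41.0, 32.0 and 26.4 RPKM in hPARG dishes, and it ranked 17th of 36, above the mean of the cytosolic genes Tars, Hars, Wars and Cars. Whether its count holds reads from similar sequence elsewhere was not tested, and the 2 mitochondrial rRNA genes of the count table held 0 counts. That limit applies to the level, the pair ratio and the fold change of Lars2 alike. No other mitochondrial member reached the range of any cytosolic one: Rars2 (arginine), the next, lay between 12.97 and 16.9 RPKM. Yars2 (tyrosine) had a mean of 12.3 RPKM, and a gap with no overlap of dishes separated it from Iars2 (isoleucine) and all members below.

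At the lower end stood Pars2 (proline), Wars2 (tryptophan) and Mars2 (methionine). Pars2 was at 2.51, 2.25 and 2.37 RPKM in control and 2.41, 2.64 and 2.23 RPKM in hPARG dishes, and Wars2 was at 2.24, 2.47 and 2.03 RPKM against 2.30, 2.06 and 2.33 RPKM. Mars2 (chromosome 1, 55237177 to 55248470, plus strand) was the lowest, with 1.68, 1.64 and 1.94 RPKM in control and 1.52, 1.53 and 1.599 RPKM in hPARG dishes, below every dish of Wars2. The RPKM of Mars2 rests on an annotated exon length of 11294 bases, the longest of the members, and its percentile among tested genes was 18.5.

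**Figure D1:**
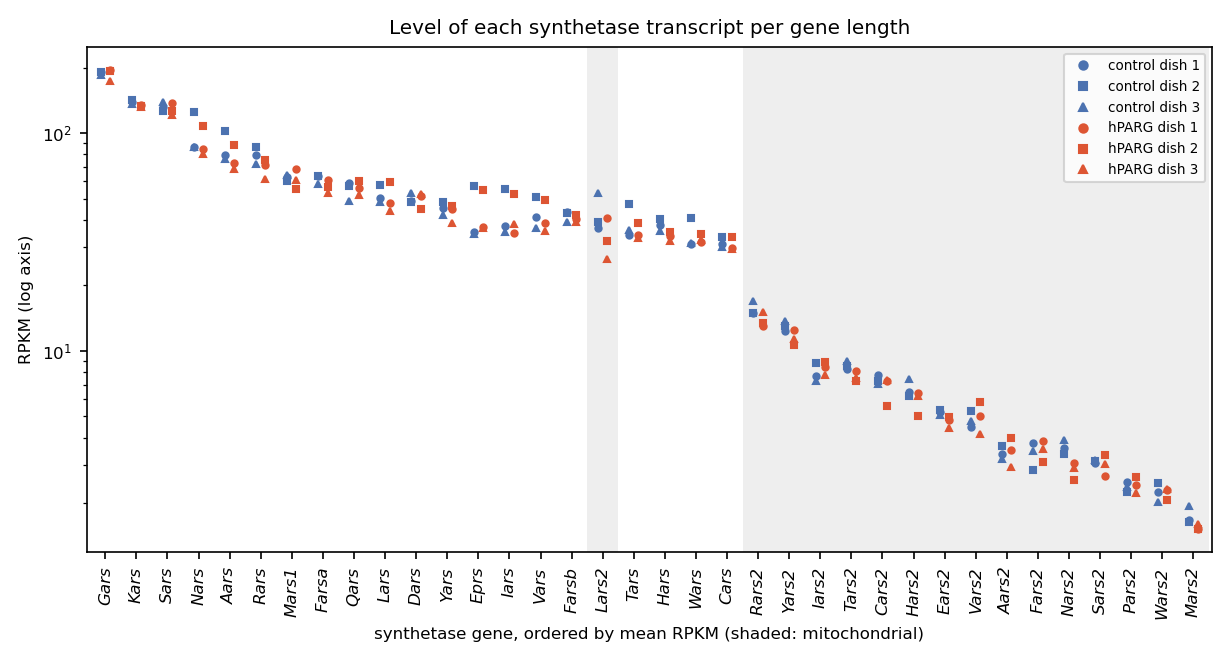
RPKM (log axis) of the 36 synthetase genes in each of the 6 dishes, ordered by mean RPKM; blue points are control and orange points hPARG dishes, with marker shape for the dish number and grey shading for mitochondrial genes. Lars2 is the only shaded gene within the cytosolic range, and Gars at the left lies between 173.5 and 195.2 RPKM.

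Pairing cytosolic enzymes with the mitochondrial member for the same amino acid gave 17 pairs. Eprs was set against both Ears2 and Pars2, and both Farsa and Farsb, the subunits of the phenylalanine enzyme, against Fars2. Dars, Gars, Kars and Qars had no mitochondrial partner among the members and were left out. In 16 of 17 pairs the cytosolic gene was higher per length in all 6 dishes. The leucine pair was the exception, with a ratio of Lars to Lars2 of 1.37, 1.47 and 0.906 in control and 1.17, 1.87 and 1.67 in hPARG dishes, on either side of 1. The widest pair was serine, with a ratio of Sars to Sars2 of 43.4, 40.4 and 44.3 in control and 51.6, 37.9 and 40.1 in hPARG dishes. Methionine, with Mars1 over Mars2 at 33.2 to 45.0, and asparagine, with Nars over Nars2 at 22.2 to 42.0, came next. Within a pair the ratio varied between dishes by far less than it did between amino acids.

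The ratio of Aars to Aars2 was 23.7, 28.2 and 24.0 in control dishes and 20.8, 22.2 and 23.2 in hPARG dishes. In this pair alone the groups did not overlap, it was singled out after its values were seen, and the ratios were not tested. Of the exon bases of Aars, 20.7% are shared on the same strand with Exosc6, so its reads cannot be assigned with certainty.

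**Figure D2:**
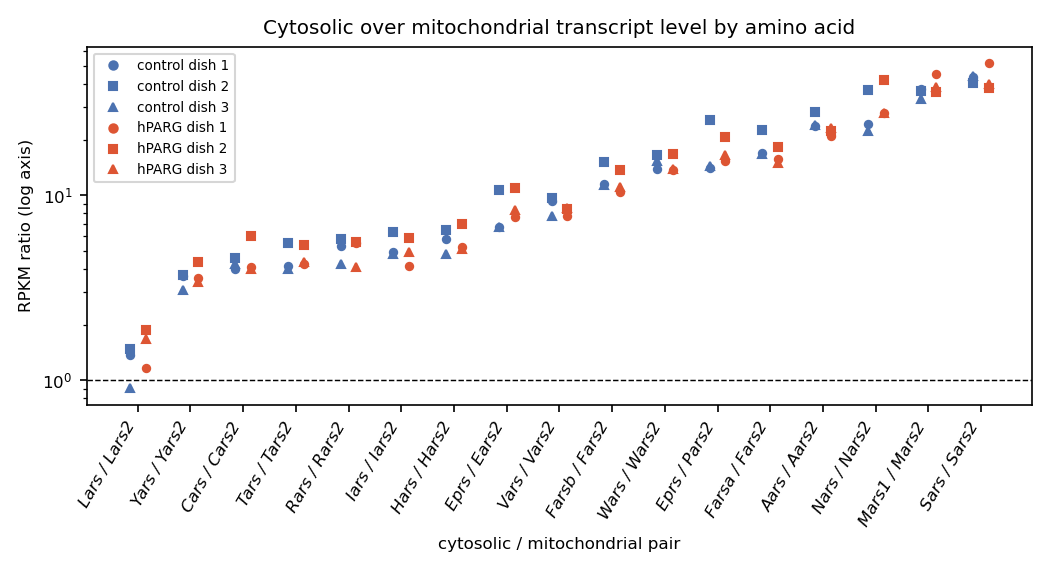
RPKM of the cytosolic gene divided by that of the mitochondrial gene for the same amino acid (log axis) in each dish, for 17 pairs; the dashed line marks equal levels. Dishes of the leucine pair lie on either side of the line and all dishes of the other 16 pairs lie above it.

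No synthetase transcript differed between hPARG and control cells at an FDR (Benjamini-Hochberg over all tested genes) under 0.05. Of the 36 members, 0 were called, where 10 of all 11509 genes (0.0869%) were, and the FDR of each member was 0.999. DESeq2 also called 0 members. At an unadjusted p under 0.05 there was 1 member, Nars2, where 3.95% of tested genes passed and 2.54% passed and were lower in hPARG. Without both dishes numbered 2, members at an FDR under 0.05 again numbered 0 (0.345% of tested genes), and Nars2 was again the only member at an unadjusted p under 0.05 (6.78% of tested genes). Fold changes are hPARG over control from edgeR's quasi-likelihood test on counts, given on the log2 scale with standard errors (SE).

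Most intervals were narrow enough to bound the difference. The 95% interval of the fold change lay within 1.5-fold in either direction for all 20 cytosolic and 14 of 16 mitochondrial genes, where 71.1% of tested genes did, and within 2-fold for all 36, where 90.8% of tested genes did. The exceptions at 1.5-fold were Nars2 and Lars2. Across the members the interval bounds reached from a fold of 0.562, for Lars2, to 1.47, for Eprs. Without the dishes numbered 2 the SE of Eprs was 0.09 in place of 0.22. Differences inside these intervals cannot be told from none, and the p-values do not show that the levels were equal.

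Cytosolic members had log2 fold changes between -0.15 (Rars) and 0.07 (Qars, glutamine), with a median of -0.02 and 7 of 20 above 0. Mitochondrial members lay between -0.36 (Lars2) and 0.12 (Iars2), with a median of -0.10 and 6 of 16 above 0. The median over all tested genes was 0.00 and 49.1% of them were below 0. The difference between the medians, cytosolic minus mitochondrial, was 0.076, and it was -0.011 without control dish 3 and -0.011 without hPARG dish 2. A related value was taken in each dish from the deviation of each gene's log2 CPM from its mean over all dishes. The cytosolic minus mitochondrial median of these deviations had an SD of 0.12 between dishes of a group. That SD describes single dishes, not the spread of the 0.076. Scaled by library size alone, 6 of the 36 members changed the sign of their fold change.

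**Figure D3:**
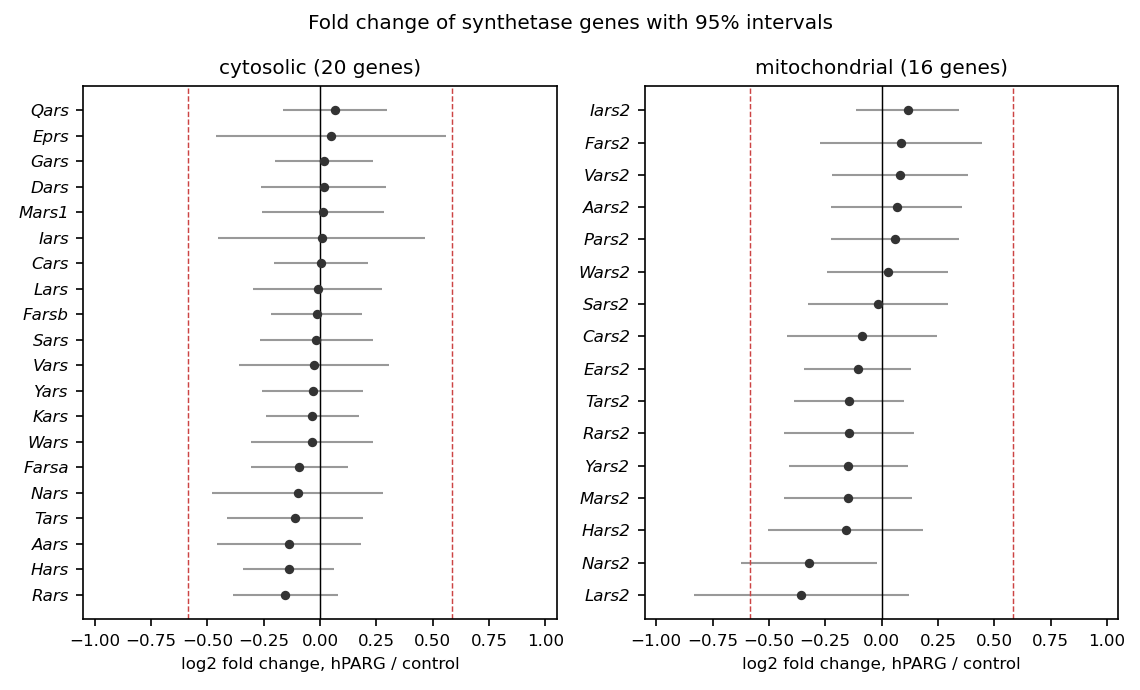
Log2 fold change (hPARG over control) of each synthetase gene, with 95% intervals from the edgeR fit, for cytosolic (left) and mitochondrial (right) genes ordered by fold change; dashed lines mark 1.5-fold. Nars2 is the only gene whose interval leaves out 0, and only Nars2 and Lars2 have intervals that cross a dashed line.

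In 3 of 36 members the hPARG dishes did not overlap the control dishes, all of them lower, against 9.62% of tested genes without overlap and 6% without overlap and lower. Nars2, the asparagine enzyme of mitochondria (chromosome 7, 96951505 to 97064758, plus strand), was at 16.2, 14.8 and 18.3 CPM in control and 14.1, 11.6 and 13.8 CPM in hPARG dishes. Its highest hPARG dish lay just under its lowest control dish. The log2 fold change was -0.32 (SE 0.13, 95% interval -0.63 to -0.02, adjusted p = 0.999). Without the dishes numbered 2 it was -0.30 (SE 0.12, adjusted p = 0.64). With single dishes left out it lay between -0.39 and -0.24, and without control dish 1, control dish 3, hPARG dish 2 or hPARG dish 3 its unadjusted p was no longer under 0.05.

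Hars, the cytosolic histidine enzyme, was at 87.4, 90.8 and 86.2 CPM in control and 80.4, 81.7 and 77.8 CPM in hPARG dishes, a log2 fold change of -0.14 (SE 0.09). Ears2, the glutamate enzyme of mitochondria, was at 11.5, 11.4 and 11.6 CPM in control and 10.9, 10.96 and 10.2 CPM in hPARG dishes, a log2 fold change of -0.11 (SE 0.10). Both gaps were small beside the level, and neither passed the test. Hars shares 9.03% of its exon bases with Hars2 and Ears2 shares 4.35% with Ubfd1, in both cases on the other strand, and the sources used here do not say whether counting used strand.

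The lowest fold change belonged to Lars2, whose SE was also the largest of the mitochondrial genes. It was at 178.8, 186.0 and 270.8 CPM in control and 204.5, 156.2 and 136.0 CPM in hPARG dishes, so that control dish 3 stood above the rest and hPARG dish 1 lay within the control range. The log2 fold change was -0.36 (SE 0.21, 95% interval -0.83 to 0.12), and -0.40 (SE 0.19) without the dishes numbered 2. It was -0.14 without control dish 3, -0.23 without hPARG dish 3 and -0.54 without hPARG dish 1, the only fit with a single dish left out in which its unadjusted p was under 0.05.

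The other members among the 10 smallest p-values were also reported in full, and of these only Rars was cytosolic. Rars was at 179.7, 189.4 and 170.8 CPM in control and 166.4, 171.1 and 147.8 CPM in hPARG dishes (log2 fold change -0.15, SE 0.10), with hPARG dish 2 inside the control range by a narrow margin. Tars2, for threonine, was at 44.6, 45.2 and 51.2 CPM in control and 44.8, 39.5 and 43.3 CPM in hPARG dishes (-0.14, SE 0.11). Yars2 was at 41.6, 42.8 and 48.2 CPM in control and 43.3, 35.9 and 40.6 CPM in hPARG dishes (-0.15, SE 0.11). In both of these mitochondrial genes control dish 3 was highest and hPARG dish 2 lowest, and the other dishes overlapped.

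Mars2 was at 20.3, 19.4 and 24.5 CPM in control and 18.8, 18.5 and 20.5 CPM in hPARG dishes (-0.15, SE 0.12). Rars2 was at 29.97, 29.1 and 35.4 CPM in control and 26.6, 27.0 and 31.8 CPM in hPARG dishes (-0.14, SE 0.12). Hars2 was at 23.2, 21.7 and 27.6 CPM in control and 23.6, 18.0 and 23.4 CPM in hPARG dishes (-0.16, SE 0.15). Again control dish 3 was the highest dish of each.

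Iars2 had the highest fold change of any member. It was at 54.8, 61.1 and 54.4 CPM in control and 61.8, 64.0 and 58.7 CPM in hPARG dishes (0.12, SE 0.10), with control dish 2 inside the hPARG range. Of its exon bases, 30.5% are shared with Rab3gap2 on the other strand, so its count may hold reads of that gene. Among the members with the highest and lowest levels per length, Gars had a log2 fold change of 0.02 (SE 0.09), Kars of -0.03 (SE 0.09) and Sars of -0.02 (SE 0.11). Pars2 had 0.06 (SE 0.12) and Wars2 0.03 (SE 0.12).

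**Figure D4:**
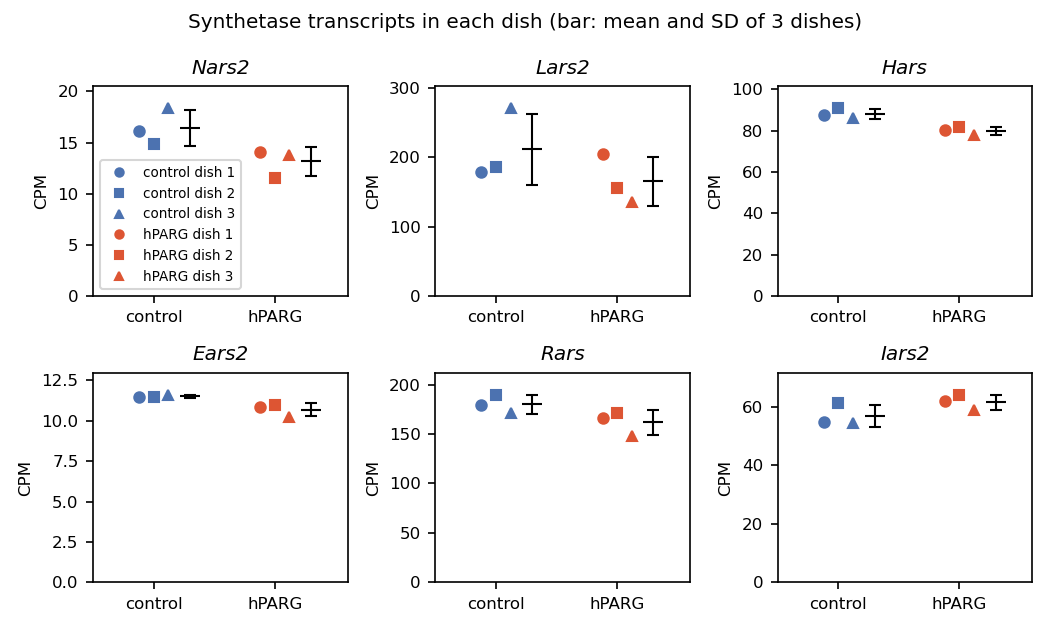
TMM-normalized CPM of 6 synthetase genes in each dish (points, with marker shape for the dish number) beside the mean and SD of 3 dishes per group, on axes that start at 0. In Nars2, Hars and Ears2 all hPARG dishes lie below all control dishes, and in Lars2 control dish 3 at 270.8 CPM stands above the other dishes.

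The cytosolic genes were also split by what is known of the enzymes. The 8 synthetases of the multisynthetase complex had a median log2 fold change of 0.01 and the 12 outside it of -0.03. The 9 of class I, which share a nucleotide-binding fold with the signature motifs HIGH and KMSKS, had a median of -0.01 and the 10 of class II, which are built on a different catalytic fold, of -0.06, with Eprs left out because its chain holds a catalytic domain of each class. The 13 on a list of ATF4 targets had a median of -0.02 and the other 7 of -0.03. Each of these groups had 0 genes at an FDR under 0.05 (0.0869% of tested genes) and 0 at an unadjusted p under 0.05 (3.95%). The scaffolds Aimp1, Aimp2 and Eef1e1 had log2 fold changes of -0.02, -0.05 and 0.01. On the other strand, Aimp2 shares 40.8% of its exon bases with Eif2ak1 and Aimp1 shares 10.8% with Tbck.

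The ATF4 list was looked at in promoter sequence as well, since ATF4 targets are known for a shared regulatory element. RefSeq promoters on GRCm38.p6, from 250 bases before to 50 after the start, were searched on both strands for TGATGNAA, the letters of the C/EBP-ATF response element that ATF4 binds with a C/EBP partner. Promoter entries existed for 13 cytosolic and 14 mitochondrial members. The letters were found in 5 of 13 cytosolic genes (38.46%) and in 0 of 14 mitochondrial genes, against 4.51% of all 27025 genes with an entry. All 5 were on the ATF4 list, which had entries for 8 genes, and none of the 5 other cytosolic genes with an entry held the letters. Windows of 30 bases are shown because they hold the matching letters, with 1 match shown for each of the 5 genes. They read 5′ to 3′ on the strand of the gene, with the matching letters in capitals:
Aars, chr8:111033840-111033869, plus strand: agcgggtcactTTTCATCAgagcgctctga
Gars, chr6:55037960-55037989, plus strand: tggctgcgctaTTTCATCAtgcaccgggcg
Iars, chr13:49682126-49682155, plus strand: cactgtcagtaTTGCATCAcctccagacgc
Tars, chr15:11399655-11399684, minus strand: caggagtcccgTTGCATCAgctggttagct
Yars, chr4:129189895-129189924, plus strand: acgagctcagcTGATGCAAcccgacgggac
In Yars the match shown is on the strand of the gene, and in the other windows it is on the opposite strand. The first letter of the match shown lay at position 10 after the start in Aars, 30 bases before it in Gars, at position 8 in Iars, 15 bases before it in Tars and at position 4 in Yars. A match is a description of letters and was not tested for binding, and genes without a match were not searched beyond this window.

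Many cytosolic synthetase transcripts were at their highest in dish 2 of both groups. Eprs was at 185.7, 294.1 and 188.3 CPM in control and 199.5, 288.0 and 203.8 CPM in hPARG dishes. Iars was at 182.9, 263.4 and 177.8 CPM in control and 174.2, 256.5 and 196.7 CPM in hPARG dishes. Nars was at 278.6, 392.3 and 289.7 CPM in control and 278.2, 346.0 and 272.2 CPM in hPARG dishes. In each of the 3 genes both dishes numbered 2 stood above all the others, while the 4 other dishes lay close together.

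Both dishes numbered 2 were above the other dishes of their group in 12 of 20 cytosolic and 3 of 16 mitochondrial members, against 35% of tested genes. Both were below in 4 of 20 cytosolic and 5 of 16 mitochondrial members, against 31.1% of tested genes. Of the 13 cytosolic genes on the ATF4 list, 10 were above and 2 below (Sars and Mars1), and of the 7 other cytosolic genes 2 were above and 2 below. The lowest members were mitochondrial, with Fars2 first and Hars2 and Cars2 next. For Fars2, control dish 2 was 0.41 and hPARG dish 2 was 0.31 below the mean of its group's other dishes in log2 CPM. Cars2 shares 18.0% of its exon bases with Naxd on the other strand.

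Other ATF4 targets were found on both sides. In a list of 21 tested ATF4 pathway genes outside the synthetases, 7 (33.3%) were above and 6 (28.6%) below in both dishes numbered 2. Over all tested genes these shares were 35% and 31.1%, so the list lay near the share of all genes. ATF4 itself was at 401.8, 343.7 and 456.0 CPM in control and 413.4, 372.3 and 395.6 CPM in hPARG dishes, lowest in dish 2 of each group. Psat1 and Phgdh, enzymes of serine synthesis, were likewise lowest in dish 2 of each group. Psat1 was there at 707.3 and 675.3 CPM and Phgdh at 637.0 and 669.9 CPM. Of those highest in dish 2 of each group, Slc7a5 was there at 464.9 CPM in control and 413.3 CPM in hPARG. Sesn2 was at 61.4 CPM in control dish 2 and 49.8 CPM in hPARG dish 2.

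Over all tested genes, exon length moved with the dish 2 pattern, but less so over the members as a whole. Over all tested genes, the difference between dish 2 and the other dishes correlated with exon length with Spearman's rho of 0.601 in control and 0.590 in hPARG dishes. Over the 36 members rho was 0.176 and 0.158. Over the 20 cytosolic members rho was 0.585 and 0.644, and over the 16 mitochondrial members 0.112 and 0.0618, with genes sharing libraries and so not independent. Among cytosolic members, rho was 0.571 and 0.692 over the 13 genes on the ATF4 list and -0.464 and -0.0714 over the other 7. The 13 genes on the ATF4 list had a median exon length of 3653 bases and the other 7 cytosolic genes of 2298 bases, and the part of length in the pattern was not tested. Between control dish 2 and hPARG dish 2, rho of these differences was 0.779 over the 36 members and 0.733 over all tested genes.

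**Figure D5:**
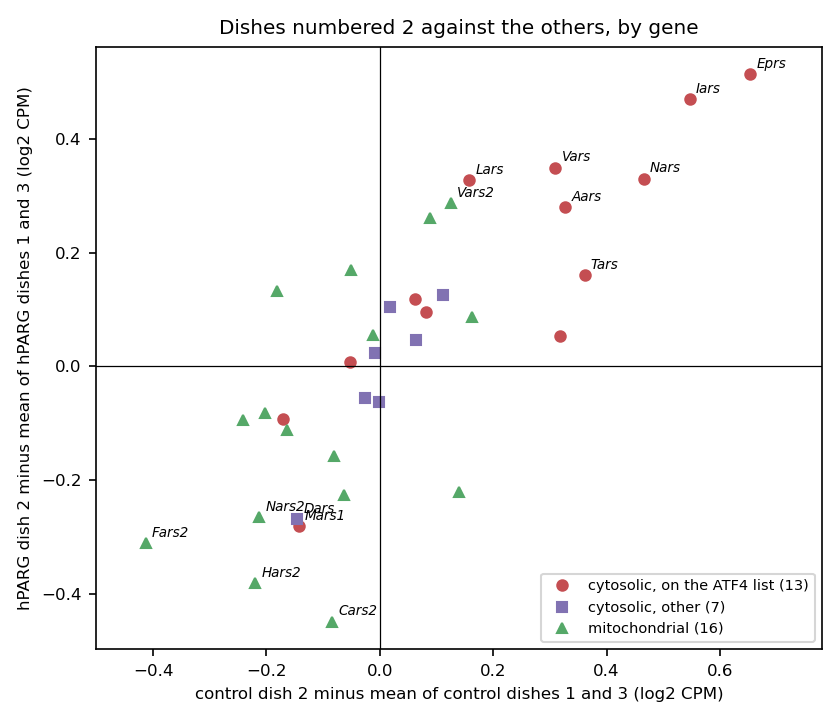
Difference between dish 2 and the mean of dishes 1 and 3 in log2 CPM, for control (horizontal) and hPARG (vertical), with each point a synthetase gene. Eprs and Iars lie at the upper right, and Fars2, Hars2 and Cars2 at the lower left.

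Other genes that handle tRNA gave no call at an FDR under 0.05 in any list (0.0869% of tested genes). There were 0 genes at an unadjusted p under 0.05 (3.95% of tested genes) in 3 of the lists. These were the 4 genes of the mitochondrial glutaminyl-tRNA amidotransferase and formyltransferase, the 8 mitochondrial translation factors and the 5 cytosolic elongation factors. The genes with the smallest p-values in these lists were Mtfmt, Gfm1 and Eef2, with log2 fold changes of 0.13 (SE 0.14), -0.08 (SE 0.10) and 0.18 (SE 0.17).

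Among 12 genes of tRNA maturation and export, 1 was at an unadjusted p under 0.05, against 3.95% of all tested genes and 2.54% lower. This was Pop1, a protein subunit of RNase P, which was at 77.7, 78.2 and 72.5 CPM in control and 62.6, 63.6 and 55.8 CPM in hPARG dishes (-0.33, SE 0.10, adjusted p = 0.906). Among 7 genes of mitochondrial tRNA modification 1 was as well, Trmt10c, a subunit of mitochondrial RNase P, at 31.0, 33.3 and 36.8 CPM in control and 30.02, 27.1 and 27.1 CPM in hPARG dishes (-0.26, SE 0.11, adjusted p = 0.999). In both genes, the only ones of their lists without overlap, all hPARG dishes lay below all control dishes, as in 6% of tested genes. Medians were -0.10 for the first list and -0.16 for the second, beside 0.00 for all tested genes.

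The ATF4 pathway outside the synthetases gave 1 gene higher and 2 lower at an unadjusted p under 0.05, of 21 tested from a list of 22, with Atf3 below the filter, against 3.95% of all tested genes in either direction and 2.54% lower. Trib3, a pseudokinase induced by ATF4, was at 130.1, 159.4 and 177.6 CPM in control and 111.1, 113.8 and 102.7 CPM in hPARG dishes (log2 fold change -0.51, SE 0.13, adjusted p = 0.713). Ddit3, which encodes the stress transcription factor CHOP, was at 52.1, 58.4 and 75.0 CPM in control and 44.6, 41.7 and 49.1 CPM in hPARG dishes (-0.45, SE 0.15, adjusted p = 0.981). Pycr1, an enzyme of proline synthesis, was at 24.0, 28.3 and 27.6 CPM in control and 32.4, 37.1 and 33.8 CPM in hPARG dishes (0.37, SE 0.11, adjusted p = 0.882). None of the 3 passed the FDR. Without overlap between groups were 1 gene of this list higher (Pycr1) and 4 lower (Trib3, Ddit3, Chac1 and Stc2), against 3.61% of tested genes higher and 6% lower. Ddit3 and Mars1 are neighbours on opposite strands of chromosome 10 whose 3′ exon bases overlap, 7.64% of those of Ddit3 and 2.29% of those of Mars1. Ddit3 also shares 11.8% on the same strand with a second entry of that name, so its reads cannot be assigned with certainty. Mars1 itself had a log2 fold change of 0.01 (SE 0.12). Asns, the asparagine synthetase that ATF4 induces, had 0.05 (SE 0.10) and Atf4 had -0.02 (SE 0.13).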

How the data were processed

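Poly(A) libraries of 6 dishes were sequenced as paired-end reads, which the authors mapped to GRCm38 with Ensembl release 96 in CLC Genomics Workbench 12.0. The authors deposited whole-number counts per gene without normalization and RPKM values per gene. The deposited RPKM matched counts divided by the merged exon length of coding transcripts in GENCODE M21 for 99.96% to 99.97% of genes with 500 or more counts in a dish (tolerance 0.1%), and counts on genes were 91.05% to 92.76% of the library total behind it. Only protein-coding genes and polymorphic pseudogenes held counts. The authors' own fold changes and p-values in the table were not used.

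Low counts were removed by filterByExpr (minimum count 10), libraries were scaled by TMM, and all 6 dishes entered glmQLFit, followed by glmQLFTest (edgeR 4.0.16, limma 3.58.1, R 4.3.3). The SE is the absolute log2 fold change over the square root of F. With 3 against 3 dishes, an exact permutation test cannot go below 0.1, so none was run. Calls were set at an FDR under 0.05. Fits were tested on simulated data. Named with full statistics were members at an FDR under 0.05, the 10 with the smallest p, those without overlap, and the 3 highest and 3 lowest by RPKM; of each other list, the gene with the smallest p. Genes named beyond this were chosen after their values were seen. The members and lists were chosen with earlier results of these data known. Alternatives were DESeq2 1.42.0, RLE factors, library size only, other filters, a replicate block, exon-length correction, and dishes left out. A gene of the other lists and a promoter window are not reported here.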

Additional observations from a re-analysis of the deposited data

How the results depend on the processing

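No member was called at an FDR under 0.05 under any alternative tried. With the replicate number as a block, the smallest member FDR was 0.0903 (Nars2), and 5 members (Aars, Hars, Rars, Lars2 and Nars2) were at an unadjusted p under 0.05, where 17.9% of tested genes were. The block also raised the calls over all genes from 10 (0.0869%) to 330 (2.87%), 23 of them beyond 2-fold. Calls in the other lists rose from 0 to 4 (Pop1, Ddit3, Trib3 and Pycr1). Same-numbered dishes deviated together with r of 0.0963, 0.61 and 0.168, so the numbers were not taken to pair them; control dish 1 correlated best with hPARG dish 3 and control dish 3 with hPARG dish 1. With exon-length correction and the block these counts were 7 (20.1% of tested genes), 462 (4.01%), 24 and 5. Over all genes there were 48 calls with DESeq2 (22 beyond 2-fold), 16 with no filter (16), 40 without both dishes numbered 2 (19) and 25 with exon-length correction alone (17). Members at an unadjusted p under 0.05 numbered 0 with DESeq2 (2.73% of genes) and 0 with exon-length correction (6.53% of genes). Members without overlap numbered 6 with library size only (10.2% of genes) and 9 without both dishes numbered 2 (35.4%). Without a single dish, calls over all genes ranged from 3 (without hPARG dish 1) to 13, and those beyond 2-fold from 3 to 13. In these fits, members at an unadjusted p under 0.05 ranged from 0 to 2, where 2.25% to 4.95% of genes passed. Members without overlap ranged from 4 to 9, where 14.7% to 23.7% of genes had no overlap. Log2 fold changes near 0 turned sign for Gars (-0.010 with library size only) and Pars2 (-0.041 without both dishes numbered 2), and in the fits without a single dish they ranged from -0.014 to 0.049 for Gars, from -0.072 to 0.047 for Sars and from -0.026 to 0.097 for Wars2. The cause of these shifts was not tested. Without a single dish, the cytosolic median log2 fold change ranged from -0.069 (without hPARG dish 2) to -0.003 (without control dish 2). The mitochondrial median ranged from -0.116 (without hPARG dish 3) to -0.047 (without control dish 3). These moves were smaller than the SD between dishes of the compartment's median log2 CPM deviation. That SD describes single dishes and does not measure the spread of a median fold change. The lowest value of a member was 131 counts, and the median half-width of the 95% interval was 0.28 on the log2 scale.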
